A study of Mus musculus with 4 samples.

Results

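Lipid-associated macrophages are tissue macrophages marked by the lipid receptor TREM2 and by genes for lipid binding, lysosomes and tissue repair. A set of 10 genes commonly used to recognise them was followed here by symbol: Trem2, Gpnmb, Spp1, Cd9, Lgals3, Fabp4, Fabp5, Cd63, Cstb and Plin2. All 10 of the 10 symbols were found among 24784 rows of the expression table, and all 10 were among the 12523 genes tested. The RNA, polyadenylated, was from macrophages isolated by flow sorting out of the liver tumours of mice, all male and 6-8 weeks old, which had received Hepa 1-6, a mouse hepatoma line, by a route the labels abbreviate as i.pv. There were 2 libraries of the genotype OXCT1mKO and 2 labelled Control. Oxct1, the gene the label names, encodes the mitochondrial enzyme that activates acetoacetate in ketone body breakdown. The driver of the deletion, the genotype of the controls beyond that word and whether each library came from 1 animal or a pool were not given in the sources used here.

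As background, TREM2 is a surface receptor of myeloid cells that binds lipids and lipoproteins and signals through the adaptor encoded by Tyrobp. In obese fat tissue and fatty liver of mice, macrophages that take up lipid express Trem2 together with Gpnmb, Spp1, Cd9 and Fabp5, and similar cells occur in tumours. Several of the genes are not specific to macrophages: endothelial cells and adipocytes make Fabp4, biliary and hepatoma cells can make Spp1, platelets carry Cd9, and Plin2 coats lipid droplets in hepatocytes as well.

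The promoters of the genes that rose and fell the furthest, Gpnmb and Cd63, are shown with that of Trem2, the receptor that gives the cells their name. Each is the RefSeq stretch of build GRCm38.p6 from 250 bases before to 50 bases after the annotated start, written 5′ to 3′ on the strand of the gene. Capitals mark a match to the AP-1 motif.
Gpnmb, chr6:49036268-49036567, plus strand: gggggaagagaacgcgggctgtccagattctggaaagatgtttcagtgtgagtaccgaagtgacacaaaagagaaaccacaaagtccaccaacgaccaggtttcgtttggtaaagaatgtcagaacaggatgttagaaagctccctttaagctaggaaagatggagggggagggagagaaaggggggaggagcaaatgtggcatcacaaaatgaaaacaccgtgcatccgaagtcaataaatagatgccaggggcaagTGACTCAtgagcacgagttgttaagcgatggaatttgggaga
Trem2, chr17:48346151-48346450, plus strand: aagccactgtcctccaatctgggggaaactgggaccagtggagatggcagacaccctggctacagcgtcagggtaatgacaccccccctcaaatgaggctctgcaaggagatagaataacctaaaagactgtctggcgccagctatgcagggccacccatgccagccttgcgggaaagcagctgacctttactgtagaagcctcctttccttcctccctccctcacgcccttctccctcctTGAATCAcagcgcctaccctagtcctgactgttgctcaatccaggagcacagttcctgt
Cd63, chr10:128909095-128909394, plus strand: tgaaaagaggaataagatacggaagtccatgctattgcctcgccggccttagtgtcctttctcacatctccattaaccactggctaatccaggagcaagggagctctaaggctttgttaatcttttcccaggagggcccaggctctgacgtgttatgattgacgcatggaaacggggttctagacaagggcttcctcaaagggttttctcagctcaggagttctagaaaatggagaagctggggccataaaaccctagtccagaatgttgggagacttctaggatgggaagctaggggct
A promoter entry was found for 7 of the 10 genes, with 2 starts for Spp1, and Fabp4, Fabp5 and Cstb had none. A search of both strands covered 3 motifs: CACGTG, an E-box bound by MiT/TFE factors, TCATGTG, an M-box, and TGANTCA, an AP-1 motif. Gpnmb held TGANTCA from position 9 to position 15 after the start, and Trem2 held it from 9 to 3 bases before the start. Plin2 held CACGTG across its start. The other promoter entries, Cd63 included, held none of these letters. The entries of Cd63 and Lgals3 and the downstream entry of Spp1 lie inside the gene bounds given below, and starts without an entry were not searched. Among 32851 RefSeq promoters of the same length, 7.15% held CACGTG, 3.77% held TCATGTG and 7.81% held TGANTCA. These are matches of letters and not measured sites.

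Library quality and purity bear on every value that follows. Values are RPKM, reads scaled to the length of the gene model and to the size of the library, and they summed to 327811 and 325034 in the OXCT1mKO libraries and to 377575 and 355951 in the control libraries. The number of reads is unknown; ratios between low values put their depths, relative to control 1, at 0.911 to 1.03. Globin rows, near-identical copies included, took 8.81% of the sum in control 1 and 0.132% to 0.327% in the other 3 libraries. Oxct1 was 14.7 and 15.4 RPKM in OXCT1mKO and 19.3 and 20.3 RPKM in control, a log2 fold change of -0.37 ± 0.09 (SE, limma adjusted p 0.0346). Of its exon length 12.6%, or 467 bases, is shared with BC037032 on the opposite strand, and the strand setting of the counting is unknown. Macrophage genes were present in all libraries, and so were genes of other cells. The summed level of 14 pan-macrophage markers was 1933 and 2111 RPKM in OXCT1mKO, against 1671 and 964 RPKM in control, and 7 of the 14 were higher in OXCT1mKO by limma and 0 lower. The summed level of 13 endothelial markers was 2244 and 1999 RPKM in OXCT1mKO, against 1314 and 1467 RPKM in control. The summed level of 11 hepatoma and biliary epithelial markers was 841 and 811 RPKM in OXCT1mKO, against 1061 and 1524 RPKM in control. For 10 neutrophil markers it was 599 and 420 RPKM in OXCT1mKO, against 184 and 1355 RPKM in control. For 7 B cell and plasma cell markers it was 76.9 and 94.3 RPKM in OXCT1mKO, against 23.6 and 165 RPKM in control. For 10 T cell markers it was 51.9 and 94.5 RPKM in OXCT1mKO, against 241 and 160 RPKM in control. A different share of a cell type and a different amount of RNA per cell cannot be told apart in such samples. Since no label ties a library to an animal of its own, p-values reflect the spread among these 4 libraries, and that spread may be technical.

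The 10 genes did not move together between OXCT1mKO and control. Gpnmb rose, Cd63, Fabp4 and Cstb fell, and Trem2, Spp1, Cd9, Lgals3, Fabp5 and Plin2 did not pass the test. Testing used limma on log2(RPKM + 1), with Benjamini-Hochberg adjustment over all 12523 genes and a threshold of 0.05. The 4 genes that passed were 40.0% of the 10, whereas 32.8% of all tested genes passed. Upward calls made up 16.4% of tested genes and downward calls 16.4%, beside 1 and 3 of the 10. The median log2 fold change of the 10 was -0.09, from -0.96 to 1.57, against 0.0045 over all tested genes. The libraries of the 2 genotypes did not overlap for 6 of the 10 genes, 2 higher and 4 lower in OXCT1mKO, where 74.7% of all tested genes did not overlap, 37.6% higher and 37.0% lower. These shares are close to the background. With each library scaled to the same RPKM sum, the median of all tested genes moved to 0.15 and 72.4% of called genes were higher, against 50.1% without scaling. The summed level of the 10 genes was 923 and 995 RPKM in OXCT1mKO, against 1031 and 1213 RPKM in control.

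**Figure D1:**
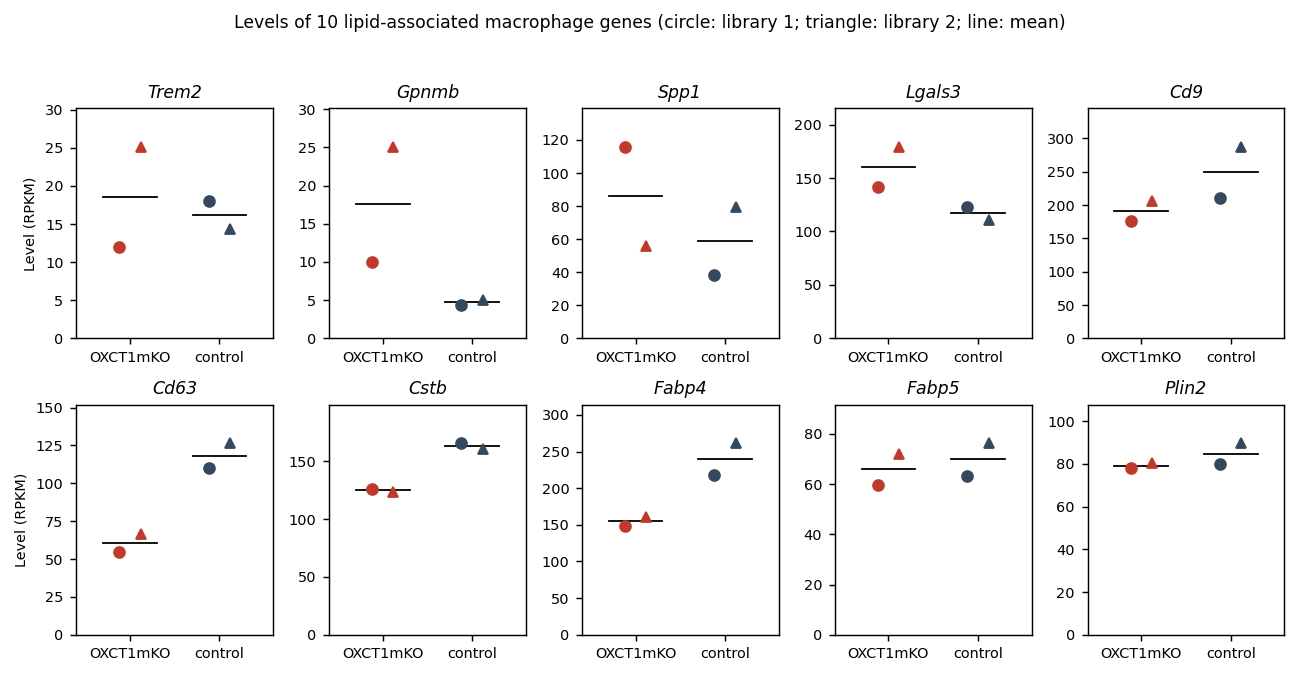
Level in RPKM (vertical axes, each from 0) of each of the 10 genes in the 2 OXCT1mKO libraries (red, left) and the 2 control libraries (dark, right), with circles for library 1, triangles for library 2 and a line at the mean. Gpnmb, Lgals3, Cd9, Cd63, Cstb and Fabp4 have libraries that do not overlap between the genotypes, while those of Trem2, Spp1, Fabp5 and Plin2 overlap.

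Per length of gene model, the order of the mean level over the 4 libraries was Cd9 (220 RPKM), Fabp4 (197), Cstb (144), Lgals3 (139), Cd63 (89.4), Plin2 (82.0), Spp1 (72.4), Fabp5 (67.9), Trem2 (17.3) and Gpnmb (11.1). The ranges of neighbours in this order over the 4 libraries overlapped, except those of Fabp5 and Trem2. Within each library Fabp4 exceeded Cstb, Fabp5 exceeded Trem2 and Trem2 exceeded Gpnmb, whereas the other neighbours changed places in at least 1 library. Trem2 thus lay below the galectin, tetraspanin and fatty acid binding genes in level. Its mean exceeded that of 72.8% of tested genes, and the mean of Cd9 that of 98.2%.

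Trem2 showed no difference between the genotypes that exceeded the spread of the libraries. It lies on chromosome 17 from 48346401 to 48354147 on the plus strand of build GRCm38. Trem2 was measured at 11.9 and 25.2 RPKM in OXCT1mKO 1 and OXCT1mKO 2, against 18.0 and 14.3 RPKM in control 1 and control 2. The OXCT1mKO libraries held both the lowest and the highest value, with the controls between them. The mean was 18.5 ± 9.34 RPKM in OXCT1mKO and 16.2 ± 2.59 RPKM in control (SD, n = 2 each). This gave a log2 fold change of 0.11 ± 0.35 (SE), a 95% interval from -0.80 to 1.02 and a limma adjusted p of 0.824, and it was 0.62 without OXCT1mKO 1 and -0.40 without OXCT1mKO 2. The interval admits a change of nearly 1 log2 unit in either direction. The difference between the OXCT1mKO libraries was itself unusual for the data, a ratio of 2.11, and only 0.894% of tested genes differed more between them on the log2(RPKM + 1) scale.

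Gpnmb, which encodes a type I transmembrane glycoprotein of lysosomes and the cell surface, rose in OXCT1mKO. It lies on chromosome 6 from 49036546 to 49070929 on the plus strand. Gpnmb reached 10.03 and 25.1 RPKM in OXCT1mKO, against 4.38 and 5.07 RPKM in control. Both OXCT1mKO libraries lay above both controls, and the OXCT1mKO 2 value was 2.50 times that of OXCT1mKO 1. The mean was 17.6 ± 10.7 RPKM in OXCT1mKO and 4.72 ± 0.49 RPKM in control (SD, n = 2 each), a ratio of 3.72. On the log2 scale the change was 1.57 ± 0.41 (SE), its 95% interval ran from 0.50 to 2.64, and it had a limma adjusted p of 0.0440. The size rests in part on OXCT1mKO 2: the log2 fold change was 0.95 without it and 2.19 without OXCT1mKO 1. The call was lost when any library was left out, with limma adjusted p values of 0.105 without OXCT1mKO 1, 0.0761 without OXCT1mKO 2, 0.122 without control 1 and 0.0905 without control 2. It was also lost without the filter on low genes (0.101) and without the variance trend (0.0502).

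Spp1, which encodes osteopontin, a secreted ligand of integrins and CD44, was 116 and 56.0 RPKM in OXCT1mKO, against 38.2 and 79.6 RPKM in control. The genotypes overlapped, since control 2 lay above OXCT1mKO 2. Spp1 had a log2 fold change of 0.54 ± 0.48 (SE), a 95% interval from -0.70 to 1.78 and a limma adjusted p of 0.414. It was 0.02 without OXCT1mKO 1, 1.06 without OXCT1mKO 2, 0.02 without control 1 and 1.06 without control 2. Spp1 and Trem2 differed in opposite directions within OXCT1mKO: library 2 held 0.483 times the Spp1 and 2.11 times the Trem2 of library 1. Spp1 also differed by a ratio of 2.08 between control 2 and control 1, a gap that 1.92% of tested genes exceeded. Of 10 tested hepatoma and biliary epithelial markers 4 fell, Afp (-1.80 ± 0.21), Gpc3 (-0.86 ± 0.11), Sox9 (-0.61 ± 0.11) and Krt7 (-0.74 ± 0.20), and 0 rose. Of the same 10, 5 had the order of Spp1 within both genotypes, with OXCT1mKO 1 above OXCT1mKO 2 and control 2 above control 1, and 8 were higher in control 2 than in control 1. Biliary Krt19 was one of the 5, at 54.3 and 53.0 RPKM in OXCT1mKO, which lie close together, against 48.7 and 104 RPKM in control. Afp, at 24.5 and 32.7 RPKM in OXCT1mKO, against 118 and 86.0 RPKM in control, had the reverse order in both genotypes, as did Sox9. The share of all tested genes with the order of Spp1 was not counted. The part of epithelial cells in the Spp1 level was not tested. Spp1 lies on chromosome 5 from 104435118 to 104441050 on the plus strand. Its exons share 309 bases with the predicted gene Gm42793 on the same strand. Gm42793 has no row in the expression table, so whether the overlap affected the Spp1 level is unknown.

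Lgals3 encodes galectin-3, a lectin that binds galactosides on glycoproteins and gathers at damaged lysosomes. Its level was 141 and 179 RPKM in OXCT1mKO, against 123 and 111 RPKM in control, with both OXCT1mKO libraries above both controls. Its log2 fold change was 0.44 ± 0.15 (SE, 95% interval 0.06 to 0.82), and the limma adjusted p of 0.0739 missed the threshold. With each library scaled to the same RPKM sum it was 0.61 and passed (limma adjusted p 0.0364), as it did at 0.54 with globin left out of that sum (0.0499). How much of the Lgals3 level came from cells other than macrophages was not tested. Lgals3 lies on chromosome 14 from 47367751 to 47386160 on the plus strand.

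The tetraspanins Cd63 and Cd9, membrane proteins that organise other proteins in endosomes and at the cell surface, were both lower in all OXCT1mKO libraries than in any control. Cd63, a marker of late endosomes and exosomes, had the furthest fall of the 10. Its level was 54.6 and 66.4 RPKM in OXCT1mKO, against 110 and 127 RPKM in control. The mean was 60.5 ± 8.37 RPKM in OXCT1mKO and 118 ± 11.8 RPKM in control (SD, n = 2 each), a ratio of 0.512. Cd63 had a log2 fold change of -0.96 ± 0.14 (SE), a 95% interval from -1.31 to -0.60 and a limma adjusted p of 0.0142. It was -0.82 without OXCT1mKO 1 (limma adjusted p 0.109) and -1.10 without OXCT1mKO 2 (0.0726), so the direction held and the call did not. How much of the Cd63 level came from cells other than macrophages was not tested. Cd63 lies on chromosome 10 from 128900989 to 128912822 on the plus strand. The annotated pseudogene Cd63-ps matches its transcript over 858 bases at 98.0% identity, so some reads may be uncertain.

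Cd9, found on lipid-associated macrophages and also on platelets, B cells and epithelium, was 176 and 206 RPKM in OXCT1mKO, against 211 and 288 RPKM in control. The highest OXCT1mKO library lay just under the lowest control. The log2 fold change of -0.37 ± 0.18 (SE) did not pass (95% interval -0.85 to 0.11, limma adjusted p 0.177). Without control 1 it was -0.59 and passed (limma adjusted p 0.0474), and without control 2 it was -0.15. Summed over 7 platelet markers the level was 21.5 and 24.8 RPKM in OXCT1mKO, against 41.7 and 35.9 RPKM in control. Most of this sum was Pf4, a platelet chemokine that Kupffer cells and other macrophages can also express. Pf4 was 17.3 and 21.7 RPKM in OXCT1mKO, against 38.7 and 32.5 RPKM in control, and fell (log2 fold change -0.84 ± 0.15, limma adjusted p 0.0201). Itga2b, the other platelet marker tested, overlapped between the genotypes. The part of platelets in the Cd9 level was not tested. Cd9 lies on chromosome 6 from 125460266 to 125494791 on the minus strand, with 218 exon bases shared with Gm26728 on the opposite strand. Gm26728 has no row in the expression table, and no source used here gives the strand setting of the counting.

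Cstb encodes cystatin B, a cytosolic inhibitor of cysteine cathepsins. It fell by a small and even amount. Its level was 126 and 124 RPKM in OXCT1mKO, against 166 and 161 RPKM in control, and the libraries of each genotype lay close together. The ratio of means was 0.765 and the log2 fold change -0.38 ± 0.09 (SE), with a 95% interval from -0.61 to -0.16 and a limma adjusted p of 0.0319. A change of this size depends on the scaling: at the same RPKM sum it was -0.22 (limma adjusted p 0.139), and with globin left out of the sum -0.28 (0.0657). The call was also lost without the filter on low genes (0.0510), without OXCT1mKO 1 (0.193), OXCT1mKO 2 (0.195) or control 1 (0.05002, just above the threshold). How much of the Cstb level came from cells other than macrophages was not tested. Cstb lies on chromosome 10 from 78425669 to 78427622 on the plus strand.

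The neighbouring genes Fabp4 and Fabp5 encode cytosolic proteins that carry fatty acids, the first of adipocytes, macrophages and capillary endothelium and the second of epidermis and macrophages. Both lie on chromosome 3, Fabp4 from 10204088 to 10208576 on the minus strand and Fabp5 from 10012548 to 10016607 on the plus strand. Fabp4 was 149 and 161 RPKM in OXCT1mKO, against 218 and 262 RPKM in control, with no overlap. The mean was 155 ± 8.74 RPKM in OXCT1mKO and 240 ± 30.7 RPKM in control (SD, n = 2 each), a ratio of 0.646. For Fabp4 the log2 fold change was -0.62 ± 0.13 (SE), the 95% interval ran from -0.95 to -0.29 and the limma adjusted p was 0.0255. The fall did not pass at the same RPKM sum (-0.46, limma adjusted p 0.0753), without the filter on low genes (0.0579), or without OXCT1mKO 1 (0.164) or OXCT1mKO 2 (0.112).

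Fabp4 fell, whereas of 12 tested endothelial markers 8 rose and 0 fell, with a median log2 fold change of 0.74. Gpihbp1 and Emcn, also on this list, did not pass and overlapped between the genotypes. Kdr, the main receptor of vascular endothelial growth factor, rose by 1.30 ± 0.14 and Tie1, an endothelial kinase, by 0.77 ± 0.12 (limma adjusted p 0.0127 and 0.0148). The adipocyte markers were at or near 0 in all libraries: Adipoq was listed at 0, and the summed level of 6 markers was at most 0.305 RPKM. The part of endothelial cells and of adipocytes in the Fabp4 level was not tested. Fabp5 was 59.8 and 72.2 RPKM in OXCT1mKO, against 63.4 and 76.4 RPKM in control, and in each genotype library 2 was the higher. Its log2 fold change was -0.08 ± 0.15 (SE, limma adjusted p 0.683), with a 95% interval from -0.46 to 0.30, and the sign turned, to 0.084 at the same RPKM sum and to 0.018 with globin left out of it. It was 0.05 without OXCT1mKO 1 and 0.05 without control 2. Transcripts of 2 predicted genes, Gm14328 and Gm6166, match Fabp5 over up to 409 bases at 98.3% identity, so its level is uncertain to that extent. The difference in response between Fabp4 and Fabp5 was not tested.

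Plin2 encodes perilipin 2, the coat protein of lipid droplets in most cells that are not adipocytes, and its level follows the amount of stored lipid in many cell types. It was 78.2 and 80.2 RPKM in OXCT1mKO, against 79.8 and 89.7 RPKM in control. OXCT1mKO 2 lay between the controls. Its log2 fold change was -0.09 ± 0.10 (SE), and it had a 95% interval from -0.35 to 0.16 and a limma adjusted p of 0.483. The interval keeps the change of Plin2 within 0.35 log2 units, the narrowest of the genes that did not pass, although the sign turned, to 0.071 at the same RPKM sum and to 0.0050 with globin left out of it. Of 12 tested hepatocyte markers 2 rose and 1 fell, with a median log2 fold change of 0.91. Among those called were Mup20, a urinary protein gene (1.33 ± 0.16), and Fgb, a fibrinogen chain (-1.17 ± 0.10, limma adjusted p 0.0127 each). The part of hepatocytes in the Plin2 level was not tested. Plin2 lies on chromosome 4 from 86648386 to 86670060 on the minus strand.

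**Figure D2:**
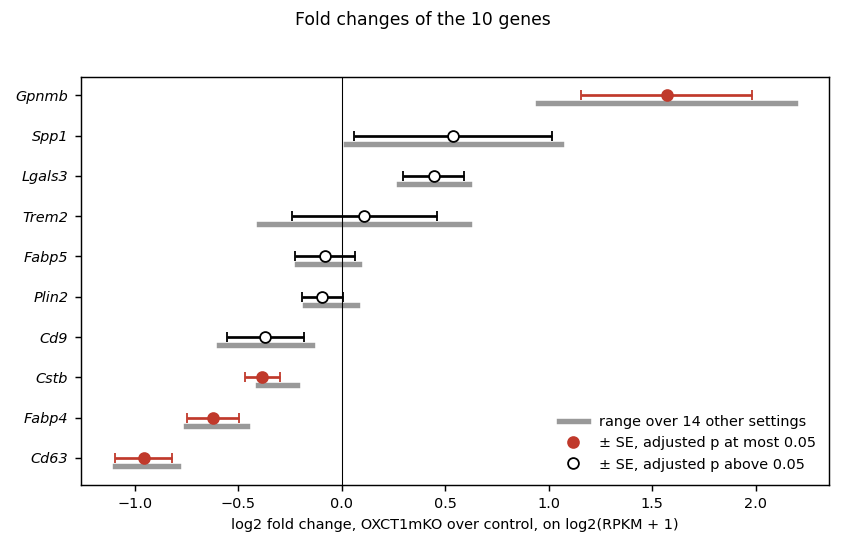
The log2 fold change of each of the 10 genes, OXCT1mKO over control, on the log2(RPKM + 1) scale (horizontal axis), with its SE, filled in red where the limma adjusted p was at most 0.05; grey bars span the values under the 14 other settings. The bars of Gpnmb, Lgals3, Cd9, Cstb, Fabp4 and Cd63 stay on 1 side of 0, that of Spp1 reaches down to 0.02, and those of Trem2, Fabp5 and Plin2 cross 0.

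The levels were next set against macrophage genes of the same library, because 7 of 14 pan-macrophage markers were higher in OXCT1mKO by limma. The index was the geometric mean RPKM of Csf1r, Adgre1, Cd68, Mertk and Fcgr1, which was 42.9 and 40.5 in OXCT1mKO, against 22.0 and 14.6 in control, a difference of 1.22 in log2. Each index gene was higher in both OXCT1mKO libraries than in both controls, whereas the markers C1qa, C1qb, C1qc and Aif1 overlapped between the genotypes. The ratios therefore depend on the choice of index genes. Per unit of this index, 8 of the 10 genes were lower in both OXCT1mKO libraries than in both controls. The median log2 fold change of all tested genes was 0.0045 before this division, so an unchanged gene would also read as lower. The share of all tested genes that were lower per unit of the index was not counted. Trem2 had 0.278 and 0.620 RPKM per index RPKM in OXCT1mKO, against 0.818 and 0.981 in control. Cd63 had 1.27 and 1.64 in OXCT1mKO, against 4.99 and 8.67 in control. Fabp4 had 3.47 and 3.97 in OXCT1mKO, against 9.92 and 17.9 in control. Gpnmb and Spp1 were the exceptions, both with overlap: Gpnmb had 0.234 and 0.619 in OXCT1mKO, against 0.199 and 0.347 in control, and Spp1 had 2.70 and 1.38 in OXCT1mKO, against 1.74 and 5.45 in control. The ratios carry no test, and they share the index, so the 8 genes are not 8 separate observations. The index of control 1 was 1.51 times that of control 2, and this gap enters every control ratio.

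**Figure D3:**
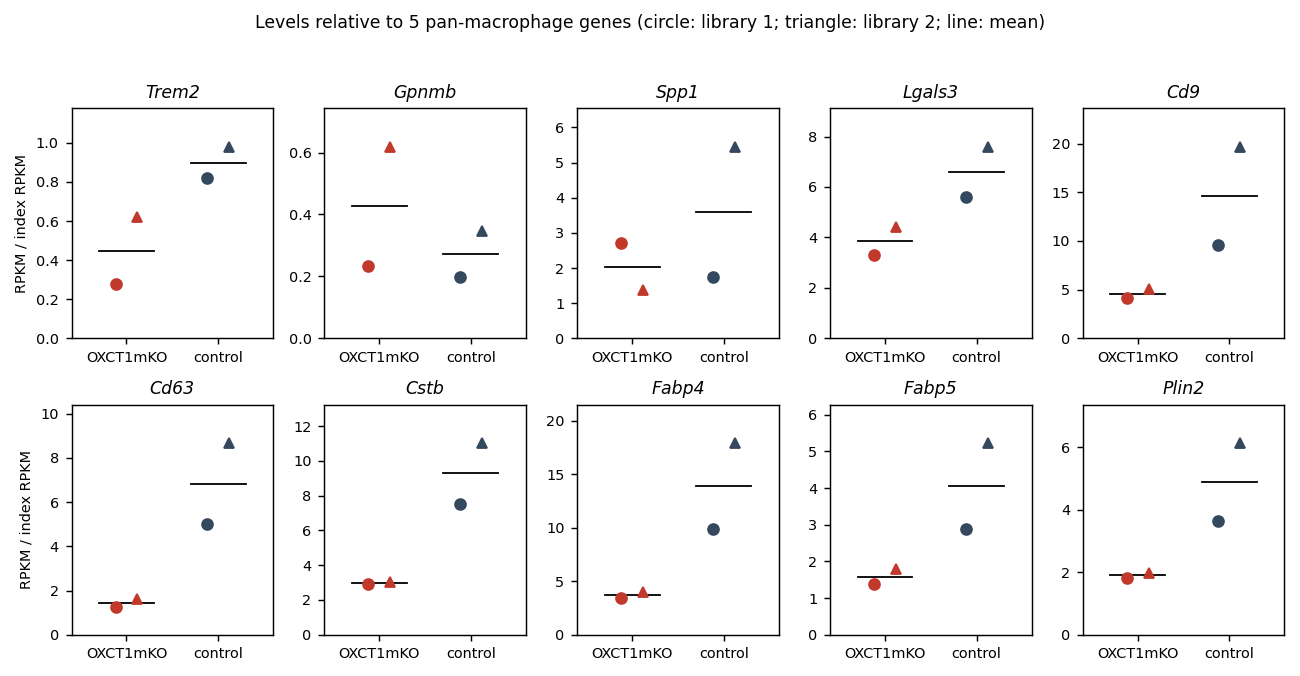
RPKM of each of the 10 genes divided by the geometric mean RPKM of 5 pan-macrophage genes in the same library (vertical axes, each from 0), for OXCT1mKO (red, left) and control (dark, right), with circles for library 1, triangles for library 2 and a line at the mean. For 8 genes both OXCT1mKO points lie below both control points; for Gpnmb and Spp1 they overlap.

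The signalling partners of Trem2 were higher in OXCT1mKO, except Hcst. Of 10 genes of the receptor complex and its signalling, 9 rose and 0 fell by limma, with a median log2 fold change of 0.81, beside 16.4% of all tested genes higher. Tyrobp, the adaptor that carries the TREM2 signal, was 342 and 327 RPKM in OXCT1mKO, against 182 and 160 RPKM in control (log2 fold change 0.97 ± 0.11, limma adjusted p 0.0127). Plcg2, the phospholipase downstream of the receptor, rose by 1.41 ± 0.09 and the kinase gene Syk by 1.25 ± 0.19 (limma adjusted p 0.0127 and 0.0147). Adam10 and Adam17, which encode proteases that shed TREM2, rose as well. Hcst, the alternative adaptor DAP10, which is also strong in T and natural killer cells, was 12.1 and 9.55 RPKM in OXCT1mKO, against 23.2 and 14.8 RPKM in control (log2 fold change -0.73 ± 0.24, limma adjusted p 0.0723). The difference between Trem2 and these genes was not tested, and the interval of Trem2 contains the median of the list. The signalling genes serve many receptors of leukocytes, and markers of several myeloid cells rose beside them. Of 14 pan-macrophage markers 7 rose and 0 fell, with a median of 0.91. Of 13 Kupffer cell markers 10 rose and 0 fell, with a median of 2.12, among them Cd5l, a secreted scavenger receptor family protein of tissue macrophages (3.01 ± 0.25), and their summed level was 922 and 687 RPKM in OXCT1mKO, against 414 and 361 RPKM in control. Of 10 tested monocyte markers 7 rose and 0 fell, with a median of 1.39, among them the chemokine receptor gene Ccr2 (2.24 ± 0.17), and the summed level of all 11 was 722 and 619 RPKM in OXCT1mKO, against 252 and 301 RPKM in control. The part of cell numbers in the signalling list was not tested. Without OXCT1mKO 1 or OXCT1mKO 2, 0 genes of the signalling list or of any later pathway or family list passed, and 1 and 10 of all genes did. Hcst passed downward without control 2.

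Of the lipoprotein genes whose products TREM2 binds, 3 of 4 were tested and 0 passed by limma, 1 having an unadjusted p under 0.05. Apoe, which macrophages and hepatocytes secrete, was among the more abundant transcripts, at 2129 and 2237 RPKM in OXCT1mKO, against 1834 and 1407 RPKM in control, without overlap (log2 fold change 0.44 ± 0.18, limma adjusted p 0.113). The hepatocyte gene Apoa1 was 58.3 and 32.6 RPKM in OXCT1mKO, against 25.05 and 12.5 RPKM in control (1.25 ± 0.41, limma adjusted p 0.0733). Clu, which encodes clusterin, overlapped between the genotypes (-0.16 ± 0.35, limma adjusted p 0.740). At the same RPKM sum 2 of the 3 passed upward, and likewise 2 without control 1.

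By limma 16.4% of all tested genes were higher and 16.4% lower. Of 20 further markers of lipid-associated macrophages, 5 rose and 1 fell, with a median log2 fold change of 0.16. Those that rose were Lipa, the lysosomal acid lipase (0.99 ± 0.09), Ccl9, a chemokine of macrophages (1.09 ± 0.09), Ctsb, a cathepsin (0.55 ± 0.10), Cd36, a fatty acid uptake receptor that endothelium shares (0.86 ± 0.15), and Itgax, the CD11c integrin that dendritic cells share (1.15 ± 0.24). Their limma adjusted p values lay between 0.0127 and 0.0271. Lgals1, which encodes galectin-1, fell to 196 and 207 RPKM in OXCT1mKO, against 345 and 454 RPKM in control (log2 fold change -0.97 ± 0.16, limma adjusted p 0.0167). Lpl, the lipoprotein lipase, was 30.5 and 43.1 RPKM in OXCT1mKO, against 42.9 and 34.6 RPKM in control, and did not pass.

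The families of the 10 genes were examined next, and their counts stand beside 16.4% of all tested genes higher and 16.4% lower. Of the other fatty acid binding proteins, 2 of 8 were tested: Fabp7, a brain form that Kupffer cells of mice also express, was 8.78 and 5.39 RPKM in OXCT1mKO, against 3.10 and 1.03 RPKM in control (1.46 ± 0.40, limma adjusted p 0.0476), a call lost at pseudocounts of 0.1 and 0.5, without the filter on low genes, without the variance trend and without control 2; at a minimum mean of 5 RPKM the gene was not tested. Fabp1, the liver form, was 84.9 and 40.0 RPKM in OXCT1mKO, against 21.2 and 28.3 RPKM in control (1.22 ± 0.38, limma adjusted p 0.0635). Of 15 tested lipid droplet genes, 1 rose and 1 fell: Lipe, the hormone-sensitive lipase (0.42 ± 0.10, limma adjusted p 0.0317), and Acsl3, an acyl-CoA synthetase (-0.40 ± 0.11, limma adjusted p 0.0472). Without the filter on low genes neither passed. Without control 1 and without control 2 the counts were 3 higher and 0 lower each, as they were at the same RPKM sum, and the fall of Acsl3 was also lost without the variance trend. The perilipin genes of fat cells, Plin1 and Plin4, were below 0.1 RPKM or listed at 0 in every library.

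Of 15 other tetraspanins, 5 rose and 2 fell, with a median log2 fold change of 0.05, so the family gave no shared direction with Cd63 and Cd9. Tspan33 rose by 1.30 ± 0.13, Tspan13 by 0.79 ± 0.13, Cd53, a leukocyte tetraspanin, by 0.74 ± 0.15, and Tspan7 and Tspan14 by 0.47 each. Cd37, another leukocyte tetraspanin, fell (-0.43 ± 0.10, limma adjusted p 0.0326), and Tspan8, a tetraspanin of epithelium and tumour cells, fell to 33.4 and 32.7 RPKM in OXCT1mKO, against 61.6 and 74.0 RPKM in control (-1.01 ± 0.12, limma adjusted p 0.0127). Of 7 other tested galectin genes, the galectin-3 binding protein gene included, Lgals8 (0.47 ± 0.10) and Lgals3bp (0.39 ± 0.09) rose and Lgals1 fell, and without control 1 the count higher was 1. Of 13 other tested cystatin and cathepsin genes, not all of them targets of cystatin B, 6 rose and 1 fell, with a median of 0.33. Cst3, the secreted cystatin C, was 779 and 907 RPKM in OXCT1mKO, against 436 and 403 RPKM in control (1.00 ± 0.13, limma adjusted p 0.0129), in the opposite direction to Cstb. Ctsk rose by 1.17 ± 0.14 and Ctso by 0.66 ± 0.10, while Ctsw, a cathepsin of cytotoxic lymphocytes, fell (-1.25 ± 0.28, limma adjusted p 0.0307), beside 5 of 10 T cell markers that fell: Cd3d, Cd3g, Cd8b1, Lat and Thy1. Without control 1 the call of Ctsw was lost.

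Of 10 receptor genes for osteopontin and GPNMB, 3 rose and 0 fell: Itga4 (1.56 ± 0.11), Itga9 (1.16 ± 0.11) and Itga5 (0.57 ± 0.15), all integrin alpha chains (limma adjusted p 0.0127, 0.0127 and 0.0421). The count higher was 2 without control 1 and 5 without control 2. Of all tested genes 16.4% were higher and 16.4% lower. Cd44, the hyaluronan and osteopontin receptor, overlapped between the genotypes, at 45.6 and 46.5 RPKM in OXCT1mKO, against 36.0 and 45.8 RPKM in control. Of 12 tested transcription factors that act on lysosomal and lipid genes, 3 rose and 0 fell, beside the same shares of all tested genes. Mitf, a factor known to drive Gpnmb, was 2.84 and 2.71 RPKM in OXCT1mKO, against 1.00 and 0.904 RPKM in control (0.95 ± 0.13, limma adjusted p 0.0130). Rxra, the partner of PPAR and LXR receptors, rose by 0.90 ± 0.14 and Cebpb by 0.97 ± 0.25 (limma adjusted p 0.0154 and 0.0418). Tfeb, Tfe3, Pparg and Nr1h3 did not pass.

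**Figure D4:**
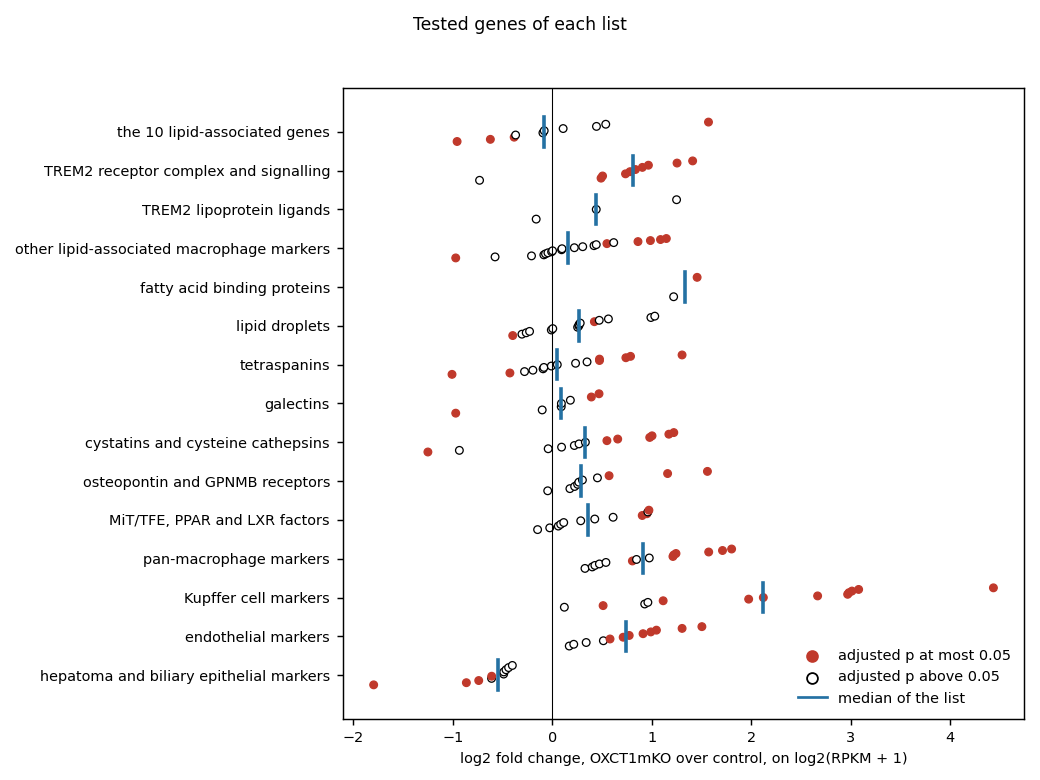
Log2 fold change, OXCT1mKO over control, on the log2(RPKM + 1) scale (horizontal axis), of every tested gene in the 10 lipid-associated genes and in 14 lists, with 1 point per gene, filled in red where the limma adjusted p was at most 0.05, and a blue line at the median. The 10 genes spread over both sides of 0, as do the further lipid-associated markers, while the TREM2 signalling genes lie above 0 except Hcst.

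The genes whose pattern over the 4 libraries lay nearest to that of Trem2 were sought among 7960 other genes with a mean of at least 5 RPKM. By Euclidean distance between centred log2(RPKM + 1) values, the nearest included Mmp12 (0.26), a metalloelastase of macrophages, Klrc1 (0.33), an NKG2 receptor of natural killer cells, Ms4a4b (0.36), a T cell membrane protein, and Mmp13 (0.39), a collagenase. Mmp12, itself a further lipid-associated marker, was 27.0 and 48.2 RPKM in OXCT1mKO, against 34.0 and 24.8 RPKM in control. Of the other 9 genes, Lgals3 was nearest to Trem2, at rank 69, and Gpnmb and Spp1 were among the farthest, at ranks 7636 and 7818. With 4 libraries this is a description of the levels only.

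Set side by side, the gaps within OXCT1mKO were largest, among the 10, for Gpnmb, Spp1 and Trem2. Between the OXCT1mKO libraries the log2(RPKM + 1) gap, library 2 minus library 1, was 1.24 for Gpnmb, 1.02 for Trem2 and -1.04 for Spp1, against a median size of 0.11 over all tested genes. Fewer than 1% of tested genes had a larger gap than any of these. For the other 7 genes the gap lay between -0.03 for Cstb and 0.34 for Lgals3. Between the controls, where the median size was 0.16, the gap was 0.17 for Gpnmb, -0.31 for Trem2 and 1.04 for Spp1, and 47.7%, 23.8% and 1.92% of tested genes had a larger one, in that order.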

How the data were processed

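The authors deposited 1 table of RPKM values, each row a gene symbol and each column a library. The tools named are STAR 2.10 and R 4.0.5, and the build mm10, per the submitters' processing notes, which state no role or order. The counter, strand setting, annotation and library size definition were not given in the sources used here. Protocols in the labels name collagenase digestion, a Percoll gradient and flow sorting of macrophages, and also a microarray, which is not what the values are. Columns were matched to samples by title.

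RPKM values are not counts, so log2(RPKM + 1) was modelled with limma 3.58.1 (R 4.3.3) and a variance trend, over the 12523 genes with a mean of at least 1 RPKM, with two-sided tests and Benjamini-Hochberg adjustment. Fold changes on this scale understate the change of low genes. An exact permutation test of 2 against 2 libraries cannot give a p below 0.333. The fit was also run on simulated data with independent noise for each gene. Such data hold no difference in purity or scaling between libraries, so the run does not bear on those. The 10 genes and all lists were chosen with earlier results of these data known. The genes named from a list are mainly the up to 3 with the smallest p, plus those needed to name a count of 5 or fewer. Adam10, Adam17, Hcst, Syk, Lpl, Plin1, Plin4, Krt19, Cd44, Tfeb, Tfe3, Pparg and Nr1h3 were named after their values were seen. So were Tie1, Gpihbp1, Emcn, Itga2b, C1qa, C1qb, C1qc and Aif1. Positions and exon overlaps came from GENCODE M21 on GRCm38, the assembly also called mm10, and similar transcripts from blastn 2.17.0, with a minimum of 95% identity over 300 bases. A gene planned for the macrophage index and a gene among those nearest to Trem2 are not reported here, so the choice of the remaining 5 index genes was made after the values were seen.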

Additional observations from a re-analysis of the deposited data

How the results depend on the processing

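Over 14 other settings, the 10 genes gave 140 values, of which 110 kept their direction and side of the threshold, 19 lost a call, 3 gained one and 8 changed sign. Gpnmb, Spp1, Cd9, Lgals3, Fabp4, Cd63 and Cstb kept their direction in all 14. With a library left out, Trem2 ran from -0.40 to 0.62. Reversed values were -0.40 and -0.05 for Trem2 without OXCT1mKO 2 and control 2, 0.084 and 0.018 for Fabp5 and 0.071 and 0.0050 for Plin2 at the same RPKM sum with and without globin, and 0.052 and 0.051 for Fabp5 without OXCT1mKO 1 and control 2. Called genes numbered 4110 (2058 higher and 2052 lower), 2340 (1191 and 1149) without the filter on low genes, and 1 to 4431 with a library left out (0 to 2376 higher, 1 to 2055 lower). Calls among the 10 numbered 4 (1 higher, 3 lower), 1 without the filter (0 higher, 1 lower) and 0 to 3 with a library left out (0 higher, 0 to 3 lower); 0 were higher without the trend and 2 at the same RPKM sum, with or without globin, where 1 was lower with globin. At 1 lone OXCT1mKO library, which is assumed to vary as the controls do, 3429 and 3844 genes had an unadjusted p under 0.05. Equal RPKM sums put the median of all genes at 0.15 and that of the 10 at 0.077, and the share of higher calls at 72.4%, or 64.8% without globin, against 50.1%, with 1103 lower calls in all at equal sums. Oxct1 did not pass without the filter (-0.37), at equal sums (-0.22, or -0.28 without globin), with the replicate number as a block (-0.37, limma adjusted p 0.0577), or in some fits with a library left out (-0.41 to -0.34). The labels do not say that a number marks a shared animal or day. Deviations of same-numbered libraries had a correlation of 0.055, so the block was an alternative only; with this replicate block 3311 of the 4110 calls were shared and, of the 10 genes, Cstb lost its call (limma adjusted p 0.0606). Under this block both calls among the lipid droplet genes were lost (0 higher, 0 lower), galectin genes had 1 higher call, lipoprotein genes 1 higher, TREM2 signalling genes 1 lower, further lipid-associated markers 2 lower and transcription factors 5 higher. Without the filter on low genes the tetraspanins had 3 higher and 1 lower, the galectin genes 1 higher and the cystatins and cathepsins 0 lower. The unknown read depth and 2 libraries a genotype limit what can be seen.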
